A study of Mus musculus with 126 samples.

Results

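The genes described here are 68 neighbours of the 23420 in the deposited count table. They lie on distal mouse chromosome 4 (build mm10), from chr4:143412426-148088064, a span of 4.68 Mb that runs from Pramef8 to Agtrap. They were chosen by position alone within that span, but the span itself was drawn because its genes stood higher in cells without DNA methyltransferases than in wild type cells under the control treatment. That difference is therefore described and not used as a test. Counts past an adjusted p are given for it further on, and nothing is read from them. The comparisons that are tested use either libraries that the choice did not use (the genotypes under Trichostatin A) or an average that does not depend on that difference (the effect of Trichostatin A over both genotypes).

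The cells were mouse embryonic stem cells of the J1 line, wild type or DNMT.TKO, a triple knockout of Dnmt1, Dnmt3a and Dnmt3b on the same background, abbreviated TKO. Both were grown on gelatin-coated dishes, in medium with serum plus leukaemia inhibitory factor. Each genotype received 5 ng/µl Trichostatin A (TSA), an inhibitor of histone deacetylases, or 0.0033% DMSO as the control, for 36 h. The 8 RNA-seq libraries form 4 groups of 2, 1 for each genotype and treatment. The other 118 of the 126 samples were not analysed here. The labels name 1 line per genotype, so a difference between genotypes cannot be told apart from a difference between lines, which p-values cannot separate. The submitters call the 2 libraries of a group biological replicates and do not say whether they came from separate cultures, so p-values measure the spread between these libraries, which may be technical.

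Distal chromosome 4 carries large families that arose by tandem duplication. The zinc finger genes among them encode proteins with arrays of C2H2 fingers, which bind DNA, and many such proteins also carry a KRAB domain that recruits the corepressor Trim28 and the histone methyltransferase Setdb1, best known in embryonic stem cells for silencing retrotransposons. Prame family genes and the oogenesins encode leucine-rich repeat proteins that are expressed mainly in the germ line and the early embryo. Grouped by symbol alone, the members fell into 14 zinc finger genes, 20 Prame and oogenesin genes, 23 other named genes and 11 unnamed models. The unnamed models may include relatives of these families. Of the 68, 41 passed the filter on low counts, 12 had no count in any library and 15 had too few (43 counts or fewer over the 8 libraries). All 14 zinc finger genes passed, against 9 of the Prame and oogenesin genes, 15 of the other named genes and 3 of the unnamed models.

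Promoters from RefSeq (GRCm38.p6, which is mm10), 250 bases before to 50 after the start, show how closely related the zinc finger members are. A RefSeq start within 1000 bases of the deposited gene start was found for 52 members, 9 of them zinc finger genes. The promoters of Zfp600 and Rex2, whose genes rose in TKO under TSA as described further on, were identical in 99.3% of aligned positions, and both matched that of 2610305D13Rik in 94.8%. Under TSA, 2610305D13Rik did not pass the threshold for a rise in TKO (log2 difference 0.34). Neither did Gm13242 (0.33), whose promoter matched that of Rex2 in 88.6%. The promoter of Zfp933 matched none of the other 8 in more than 52.8%, and Zfp933 was also the zinc finger member whose level moved least. A link between promoter likeness and these differences was not tested. The promoters of Zfp600, Rex2, 2610305D13Rik and Zfp933 are shown together with that of Gm13078, a Prame family gene that was close to 0 in DMSO. Capitals mark CpG dinucleotides, the substrate of the DNA methyltransferases. The regions are chr4:146156577-146156876 on the plus strand for Zfp600, chr4:147021600-147021899 on the plus strand for Rex2, chr4:147642459-147642758 on the minus strand for 2610305D13Rik, chr4:147848369-147848668 on the minus strand for Zfp933 and chr4:143719201-143719500 on the plus strand for Gm13078, each written 5′ to 3′.
Zfp600: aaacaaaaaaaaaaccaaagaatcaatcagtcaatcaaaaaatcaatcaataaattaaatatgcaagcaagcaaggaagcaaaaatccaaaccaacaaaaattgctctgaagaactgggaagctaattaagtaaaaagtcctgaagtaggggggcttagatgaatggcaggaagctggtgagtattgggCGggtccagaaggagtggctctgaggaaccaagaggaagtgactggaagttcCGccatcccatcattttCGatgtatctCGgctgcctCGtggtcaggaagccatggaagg
Rex2: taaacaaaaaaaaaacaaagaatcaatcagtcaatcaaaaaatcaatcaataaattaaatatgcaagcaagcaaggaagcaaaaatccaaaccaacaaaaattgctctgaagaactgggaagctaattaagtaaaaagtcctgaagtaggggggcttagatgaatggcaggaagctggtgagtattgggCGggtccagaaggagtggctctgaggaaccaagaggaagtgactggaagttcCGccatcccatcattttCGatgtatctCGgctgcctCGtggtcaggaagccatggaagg
2610305D13Rik: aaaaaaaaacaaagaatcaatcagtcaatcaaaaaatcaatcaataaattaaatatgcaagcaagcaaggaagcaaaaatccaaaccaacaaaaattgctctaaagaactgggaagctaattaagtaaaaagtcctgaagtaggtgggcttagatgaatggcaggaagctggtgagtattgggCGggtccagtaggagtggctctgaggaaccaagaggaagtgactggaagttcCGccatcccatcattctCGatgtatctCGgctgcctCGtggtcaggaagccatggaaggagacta
Zfp933: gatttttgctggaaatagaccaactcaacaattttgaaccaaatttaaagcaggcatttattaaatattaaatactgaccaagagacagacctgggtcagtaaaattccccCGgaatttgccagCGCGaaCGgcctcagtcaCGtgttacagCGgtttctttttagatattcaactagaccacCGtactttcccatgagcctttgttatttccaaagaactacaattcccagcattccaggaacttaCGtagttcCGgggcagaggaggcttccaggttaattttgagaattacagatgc
Gm13078: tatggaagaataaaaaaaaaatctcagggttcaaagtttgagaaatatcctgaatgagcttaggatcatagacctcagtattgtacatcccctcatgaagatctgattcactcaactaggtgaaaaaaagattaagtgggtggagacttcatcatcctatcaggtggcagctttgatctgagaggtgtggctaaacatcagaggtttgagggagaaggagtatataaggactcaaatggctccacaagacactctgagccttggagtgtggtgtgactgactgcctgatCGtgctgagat

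The zinc finger promoters held 3 to 9 CpG, with a median of 5, and the 19 Prame and oogenesin promoters held 0 to 7, with a median of 1. The median of all 32851 promoters in the RefSeq table was 7, with quartiles at 3 and 20. The letters GGGCGG, the core of an SP1 motif, stood on either strand in 6 of the 9 zinc finger promoters (66.7%) and in 35.7% of all promoters. CACGTG, the core of a MAX motif, stood in 1 of the 9, that of Zfp933, and in 7.15% of all promoters. CCGGAAG (GABPA, 8.86% of all), the NRF1 motif (0.971%) and AAGATGGC (YY1, 2.75%) were in none of the 9. None of the 5 motifs was in a Prame or oogenesin promoter. The zinc finger promoters share descent, so a motif found in several of them is not several independent matches.

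Total counts were 13280631 to 15542527 per library, so 3 counts corresponded to 0.193 to 0.226 CPM, the unit used here for a count scaled to a common library total, and the window held 0.139% to 0.237% of them. Levels are CPM after scaling by TMM factors. Dnmt1, Dnmt3a and Dnmt3b were lower in all 4 TKO libraries than in any wild type library (Dnmt3b 43.7 to 76.1 against 343 to 596 CPM). The 8 embryonic stem cell markers were present in every library. Their summed level in DMSO was 3293 to 3710 CPM in wild type and 4143 to 4501 CPM in TKO. In TSA it was 1851 to 2174 CPM over both genotypes. Summed fibroblast markers were lower in TKO, at 6.33 to 6.77 against 28.2 to 37.5 CPM in DMSO and 28.0 to 44.4 against 62.9 to 79.8 CPM in TSA, with Dcn at 0 in both TKO libraries in TSA. Summed endoderm markers were higher in TKO, at 15.8 to 17.6 against 5.28 to 6.40 CPM in DMSO and 24.0 to 26.1 against 8.00 to 10.7 CPM in TSA. The part of these markers in the differences between genotypes was not tested. In bulk RNA, fewer cells that express a gene and less RNA per cell cannot be told apart. Reads from near-identical copies, such as these zinc finger and Prame genes, can be split or lost by counting, and how such reads were treated is not given in the sources used here, so values of single family members are uncertain.

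Zinc finger genes led the difference by which the window was chosen. In DMSO all 14 were higher in TKO than in wild type, with a median log2 difference of 0.63 (range 0.12 to 1.93), whereas the 27 other members tested had a median of 0.15. Over all 41 the median was 0.40, with 34 above 0 and 7 below, and the median of all 15822 genes tested was -0.01. Past an adjusted p of 0.05, 11 members were higher, against 9.63% of all genes, and 2 were lower, against 10.7%, and the libraries of the genotypes did not overlap in 24 higher and 5 lower members, against 29.4% and 30.5% of all genes. Nothing is read from these counts, because these libraries chose the window. The 963 genes tested on the rest of chromosome 4 had a median of 0.01, and the 377 zinc finger genes tested outside the window had a median of -0.02.

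Zfp600 (chr4:146156824-146198749) had the largest such difference among the zinc finger genes, at 31.5 and 41.3 CPM in the wild type libraries and 143 and 134 in the TKO libraries in DMSO. Gm13247, named Zfp981 in RefSeq, stood at 90.2 and 169 CPM in wild type and 406 and 351 in TKO. Rex2 stood at 40.5 and 48.7 CPM in wild type and 110 and 90.5 in TKO. For these 3 genes the libraries of the genotypes did not overlap. Corrected for length, the zinc finger gene with the highest level in wild type DMSO was 2610305D13Rik (Zfp979 in RefSeq), at a mean of 86.4 RPKM. The lowest was Gm13139 (Zfp991), at 0.808 RPKM. Exons of Gm13139 overlap those of Gm13251 and Znf41-ps over 90.9% of their length, so its level and rank are uncertain. Among the zinc finger genes without exon overlap the lowest was Zfp933, at 4.91 RPKM.

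Outside the zinc finger genes the DMSO difference took both signs. Dhrs3, which encodes a retinaldehyde reductase, was lower in TKO, at 2.12 and 1.09 CPM against 6.14 and 4.38 in wild type. Pramef8 was also lower, at 37.1 and 37.0 against 54.2 and 56.4 CPM. Vps13d, which encodes a lipid transfer protein, was higher, at 165 and 173 against 129 and 134 CPM. At the edges of the window, the log2 values of the first 2 tested members inside were -0.58 ± 0.10 for Pramef8 and 1.38 ± 1.23 for BC080695 (2 counts in wild type and 6 in TKO), that of the last was 0.40 for Agtrap, and those of the nearest tested genes outside were -1.24 for Pramel1 before the window and 0.14 for Draxin after it.

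**Figure D1:**
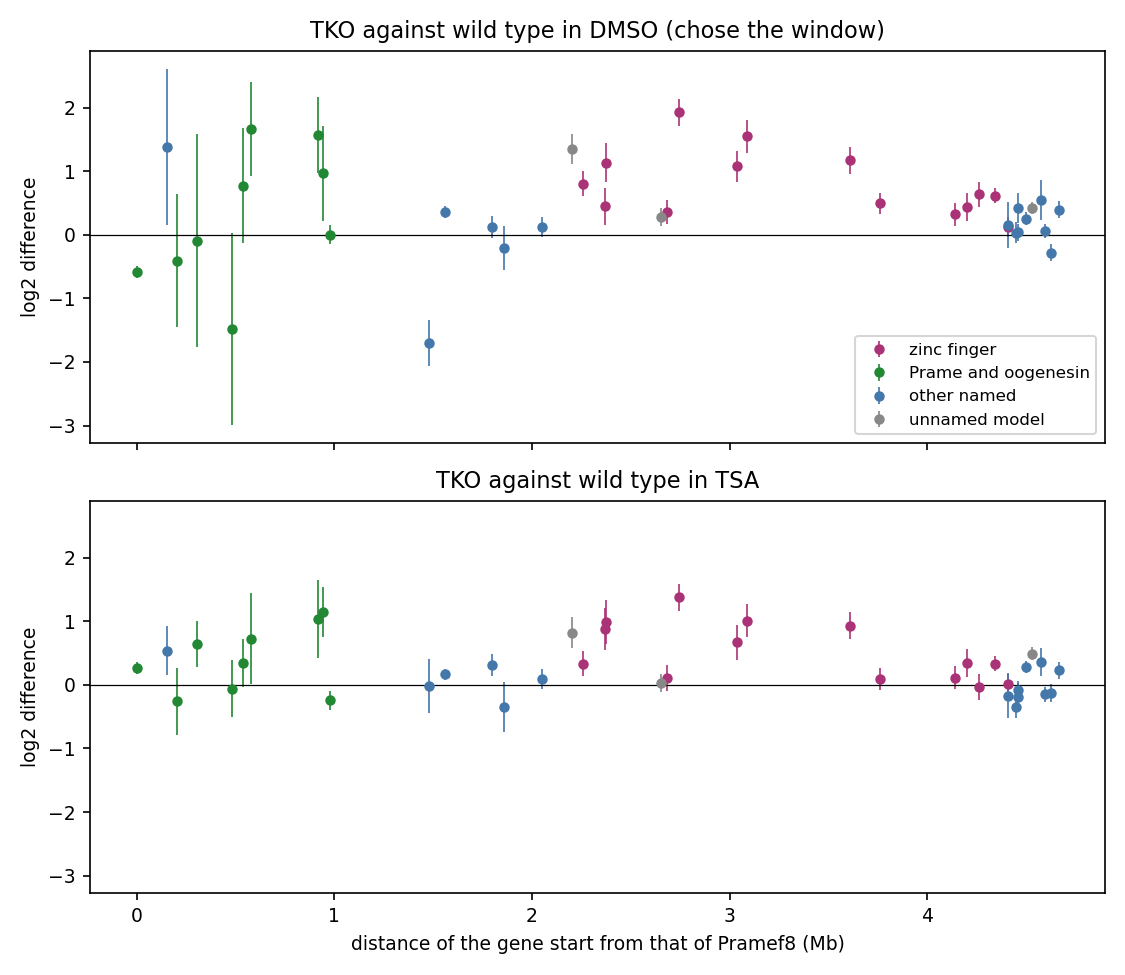
Log2 difference of TKO against wild type (y axis, point and standard error) for the 41 tested members by distance of the gene start from that of Pramef8 (x axis, Mb), in DMSO above and in TSA below, with 2 libraries per group. The zinc finger genes lie above 0 in DMSO, 14 of 14, and 13 of 14 lie above 0 in TSA.

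Under TSA, where the choice of the window used no library, 5 of the 41 tested members were higher in TKO than in wild type at an adjusted p below 0.05, against 10.0% of all genes tested, and none was lower, against 8.38% (edgeR quasi-likelihood test, 2 libraries against 2). The count of 5 is near the background. Without multiple-test adjustment, 12 members were higher and 0 lower at a p below 0.05, and DESeq2 called 4 higher and 0 lower. The libraries of the genotypes did not overlap in 16 higher members, against 31.8% of all genes, and in 5 lower members, against 31.1%. The median over the 41 members was 0.26, with 29 above 0 and 12 below, against 0.00 over all genes, 0.01 over the rest of chromosome 4 and -0.08 over zinc finger genes outside the window. It was 0.16 without wild type TSA replicate 1 and 0.17 without TKO TSA replicate 1. Of the 377 zinc finger genes outside, 16 were called higher and 37 lower. The count of 5 depended on single libraries: it was 2 without wild type TSA replicate 1, 3 without TKO TSA replicate 1 and 8 without wild type TSA replicate 2.

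Of the 14 zinc finger genes, 3 rose (Zfp600, Gm13247 and Rex2), against 10.0% of all genes tested called higher. Of the 14, 13 had a log2 difference above 0, against 7992 of all 15822 genes tested, and the median was 0.34. Without TKO TSA replicate 1 that median was 0.13, and without TKO TSA replicate 2 it was 0.64. The zinc finger genes called were 1 without wild type TSA replicate 1, 1 without TKO TSA replicate 1 and 5 without TKO TSA replicate 2. The summed embryonic stem cell markers overlapped between the genotypes in TSA, at 1895 to 2124 CPM in wild type and 1851 to 2174 CPM in TKO. In DMSO they did not overlap and were higher in TKO, at 4143 to 4501 CPM against 3293 to 3710 CPM in wild type. Their part in the genotype differences was not tested.

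Zfp600 stood at 20.0 and 22.2 CPM in wild type and at 69.2 and 40.5 CPM in TKO under TSA. The libraries did not overlap, and the difference was 1.38 ± 0.22 on the log2 scale (SE), a 2.60-fold higher level, with an adjusted p of 0.00177. Its call held in each of the 15 alternatives (adjusted p 3.41e-09 to 0.0166). In DMSO, for comparison, the difference was 1.93 ± 0.21.

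Gm13247 stood at 56.3 and 71.4 CPM in wild type and at 156 and 102 CPM in TKO, a log2 difference of 1.01 ± 0.26 with an adjusted p of 0.0217. Rex2 stood at 25.3 and 24.7 CPM in wild type and at 60.8 and 34.9 CPM in TKO, a log2 difference of 0.93 ± 0.22 with an adjusted p of 0.0128. In both genes the TKO libraries lay above the wild type libraries, with replicate 1 of TKO well above replicate 2. Without that replicate neither call held (log2 difference 0.67 and adjusted p 0.135 for Gm13247, 0.48 and 0.0798 for Rex2), nor without wild type TSA replicate 1 (0.142 and 0.0636), and Gm13247 also missed the threshold in DESeq2 (0.0718). Over all alternatives the adjusted p ran from 0.00166 to 0.142 for Gm13247 and from 0.00024 to 0.0798 for Rex2.

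The other 2 genes that rose were unnamed models in the table. 2510039O18Rik (chr4:147940895-147947314) stood at 76.0 and 73.5 CPM in wild type and at 105 and 106 CPM in TKO. It rose by 0.49 ± 0.10 on the log2 scale (adjusted p 0.00632), and its call held in each of the 15 alternatives (adjusted p 0.00149 to 0.0461). Gm13212, a protein-coding model at chr4:145617146-145624394, stood at 3.85 and 5.37 CPM in wild type and at 9.74 and 6.53 in TKO, a log2 difference of 0.82 ± 0.24 with an adjusted p of 0.0374. That call missed the threshold in 6 of 15 alternatives (adjusted p 0.0204 to 0.272), and the difference was 0.51 without TKO TSA replicate 1. None of the 15 other named genes was called in either direction, with 1 higher and 0 lower at an unadjusted p below 0.05, and their median log2 difference was -0.02. None of the 9 tested Prame and oogenesin genes was called either, with 2 higher and 0 lower at an unadjusted p below 0.05. Gm13119, at a log2 difference of 1.14 and an adjusted p of 0.0668, passed the threshold in DESeq2 (0.047), with no filter on low counts (0.0179) and without wild type TSA replicate 2 (0.00718) or TKO TSA replicate 1 (0.0404). Pramef8 (adjusted p 0.0617) passed it without wild type DMSO replicate 2 (0.0483), and BC080695, among the other named genes (adjusted p 0.365), without wild type TSA replicate 2 (0.0442).

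The genotype difference was smaller in TSA than in DMSO for 13 of the 14 zinc finger genes and for 30 of the 41 members. The DMSO values are those that chose the window, so a smaller value in other libraries follows in part from the choice and nothing is read from these counts. Across the 41 members, the log2 differences in the 2 treatments, which share no library, had a Pearson r of 0.72 and a Spearman rho of 0.78. Across the 14 zinc finger genes r was 0.85 and rho was 0.74. Genes are not independent replicates, and these genes share libraries, position and sequence, so the values are a description. No such value was computed for genes outside the window, so these values show nothing particular to it.

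TSA lowered the zinc finger genes of the window. Averaged over the genotypes, 13 of the 14 fell at an adjusted p below 0.05, against 33.0% of all genes tested called lower, and none rose, against 35.9% called higher. Their median log2 difference was -0.93, against -0.16 over the 377 zinc finger genes outside the window (77 called higher, 162 lower), -0.21 over the 95 zinc finger genes tested on chromosome 7, and 0.03 over all genes. In each of the 13, both TSA libraries lay below both DMSO libraries within each genotype, against 31.0% of all genes. The 13 calls were made in all 14 alternatives. No zinc finger gene was higher at an unadjusted p below 0.05, and DESeq2 called 13 lower as well. The summed embryonic stem cell markers were lower in TSA as well, going from 3293 to 3710 CPM in wild type DMSO to 1895 to 2124 CPM in TSA, and from 4143 to 4501 CPM to 1851 to 2174 CPM in TKO. The summed level of the 4 neural markers was also lower, going from 313 to 399 CPM to 130 to 167 CPM in wild type and from 277 to 303 CPM to 127 to 140 CPM in TKO. The part of either list in the result was not tested.

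**Figure D2:**
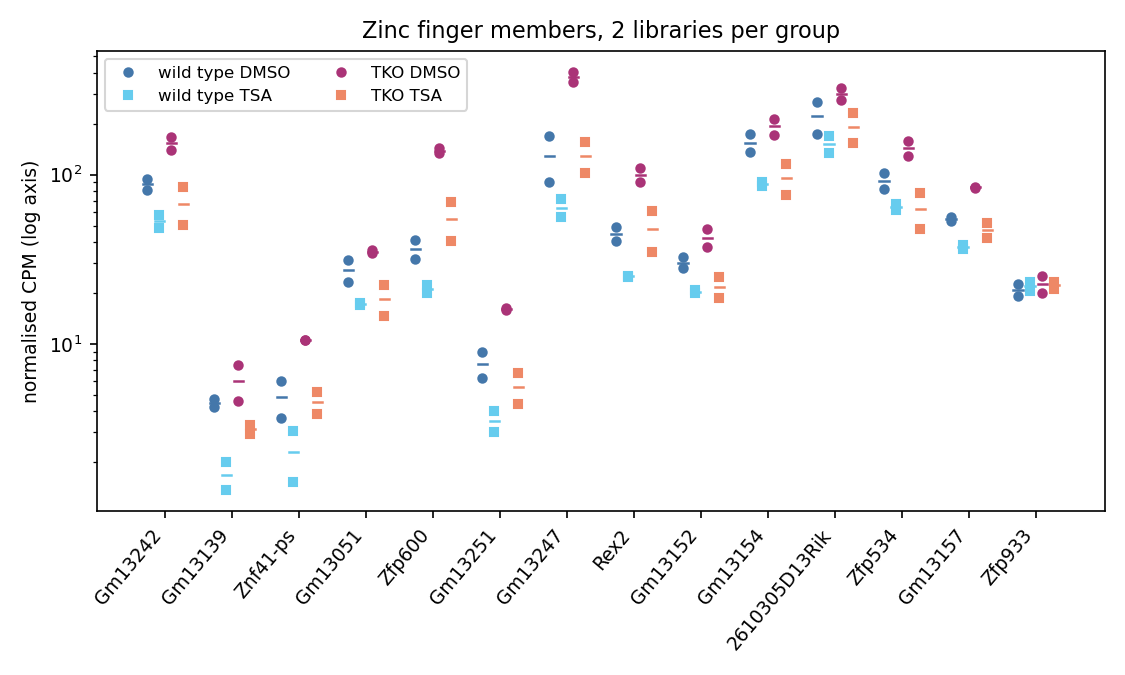
Normalised CPM on a log axis (y axis) of the 14 zinc finger members in order of position (x axis), with 1 point per library and a bar at the mean of each group of 2. The mean of TKO in DMSO is the highest of the 4 in every gene, and Zfp933 differs little between groups, from 19.2 to 25.1 CPM.

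Gm13251 (Zfp992 in RefSeq) had the largest fall. It stood at 6.28 and 9.00 CPM without TSA and 2.99 and 4.01 with it in wild type cells, and at 15.9 and 16.2 without and 6.77 and 4.40 with it in TKO cells, an averaged log2 difference of -1.33 ± 0.18 with an adjusted p of 7e-05. Exons of Gm13251 overlap those of Gm13139 over 67.3% of their length, so its reads are shared by position. Gm13247, without such overlap, stood at 90.2 and 169 CPM in wild type DMSO and 56.3 and 71.4 in TSA, and at 406 and 351 against 156 and 102 CPM in TKO. It fell by 1.29 ± 0.18 on the log2 scale (adjusted p 9.11e-05).

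Zfp600 fell by 1.06 ± 0.15 on the log2 scale (adjusted p 7.96e-05), Gm13242 (Zfp980) by 0.95 ± 0.14 (adjusted p 0.000127) and Rex2 by 0.95 ± 0.15 (adjusted p 0.000183). Gm13139 fell by 1.17 ± 0.22 (adjusted p 0.000601) and Znf41-ps, a transcribed pseudogene, by 1.15 ± 0.23 (adjusted p 0.00107). Gm13139 overlaps Gm13251 and Znf41-ps over 90.9% of its exon length, and Znf41-ps overlaps Gm13139 over 55.3%. The falls of Gm13139, Znf41-ps and Gm13251 are therefore not independent results. The exception was Zfp933, whose 8 libraries ran from 19.2 to 25.1 CPM and whose averaged log2 difference was 0.02 ± 0.11 (adjusted p 0.856).

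The order of the 4 groups is a description, since the choice of the window favoured TKO above wild type in DMSO. The mean of TKO in DMSO was the highest in all 14 zinc finger genes, and that of wild type in TSA was the lowest in 12. In 10 of the 14 the means descended from TKO in DMSO through wild type in DMSO and TKO in TSA to wild type in TSA. TKO cells in TSA were below wild type cells in DMSO in 11 of the 14, although the libraries of these neighbouring groups overlapped in some genes: Gm13247 stood at 156 and 102 CPM in TKO TSA and 90.2 and 169 in wild type DMSO. The log2 fall was larger in TKO, with a median of -1.04, than in wild type, with a median of -0.75. The difference between those 2 effects was below 0 in 13 genes with a median of -0.27, which is a description for the same reason.

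The partners through which KRAB zinc finger proteins silence their targets also moved with TSA. Of 12 such genes, 8 fell, against 33.0% of all genes, and 1 rose, against 35.9%, at an adjusted p below 0.05. Trim28, which encodes the KRAB corepressor, stood at 2426 and 2295 CPM in wild type DMSO and 1447 and 1368 in TSA, and at 2428 and 2454 against 1402 and 1410 CPM in TKO. It was lower in every TSA library. Setdb1, which encodes a histone H3 lysine methyltransferase, stood at 218 and 210 CPM without TSA and 179 and 189 with it in wild type cells, and at 242 and 239 without and 238 and 256 with it in TKO cells. Setdb1 was among the 4 partners called higher in TKO under TSA, against 10.0% of all genes. Cbx5, which encodes a heterochromatin protein, was the 1 partner called lower, against 8.38%.

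**Figure D3:**
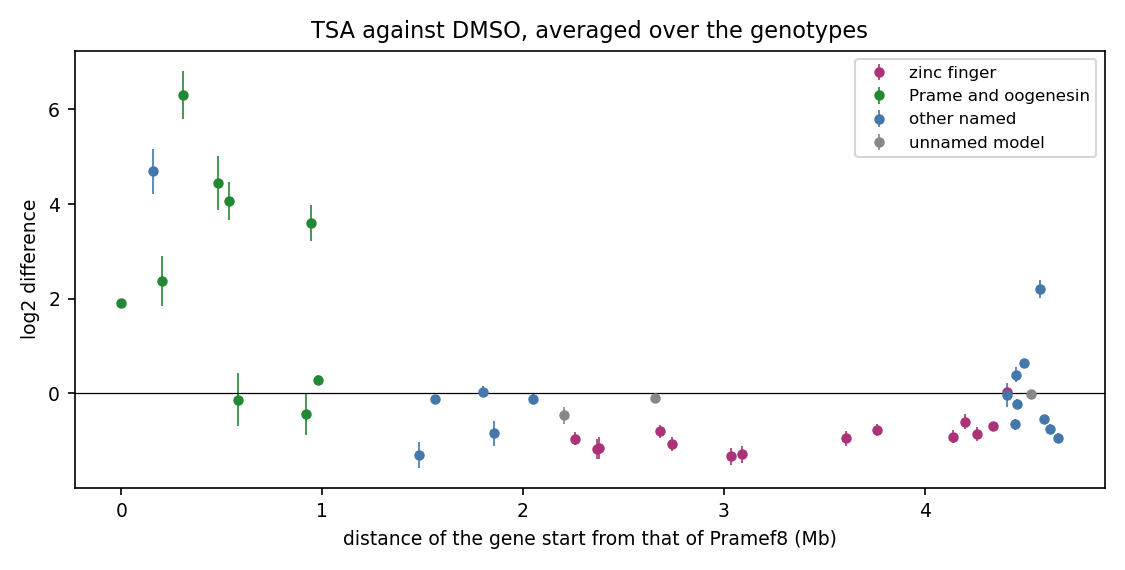
Log2 difference of TSA against DMSO averaged over the genotypes (y axis, point and standard error) for the 41 tested members by distance of the gene start from that of Pramef8 (x axis, Mb). The Prame family genes at the left reach 6.31, for Gm13078, whose size is uncertain with 2 counts in DMSO in each genotype. Gm13078 passed the filter through the TSA libraries alone. Of the 14 zinc finger genes in the middle and right, 13 lie between -0.60 and -1.33.

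Most of the tested Prame family genes at the proximal end of the window rose with TSA in both genotypes. So did Pramel1, the nearest tested gene before the window, with a log2 difference of 2.53 in wild type and 3.90 in TKO. Of the 20 Prame and oogenesin genes, 7 rose at an adjusted p below 0.05, against 35.9% of all genes, 2 were tested and not called, 7 had no count in any library and the rest had too few counts to test. Several of those that rose were near 0 in DMSO and passed the filter through the TSA libraries alone, so they had to differ, and the count is a description. No gene of the group fell, with 0 lower at an unadjusted p below 0.05, and DESeq2 called 7 higher. In 6 genes both TSA libraries lay above both DMSO libraries within each genotype, against 32.9% of all genes. These 6 include Gm13083, Gm13078, Pramef6 and Gm13109, which passed the filter through the TSA libraries alone. The same limit therefore applies to this count, to that of DESeq2 and to the median that follows, and all are descriptions. Averaged over the genotypes, the median log2 difference of the 9 tested was 2.38, which is the value of Gm13083.

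Pramef8 (Pramel12 in RefSeq), the first gene of the window at chr4:143412426-143421087, was well expressed in all groups. It stood at 54.2 and 56.4 CPM without TSA and 149 and 160 with it in wild type cells, and at 37.1 and 37.0 without and 179 and 192 with it in TKO cells. The TSA libraries lay above the DMSO libraries in both genotypes. The averaged log2 difference was 1.90 ± 0.07, a 3.74-fold rise (adjusted p 2e-08). Pramef12, at 48.8 to 77.0 CPM over the 8 libraries, rose by 0.29 ± 0.11 (adjusted p 0.0317), a call lost when any of 5 libraries was left out (wild type DMSO replicate 1, wild type TSA replicate 1 or 2, TKO DMSO replicate 1, TKO TSA replicate 2).

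Gm13078 (Pramel24) had 2 counts in the wild type DMSO libraries together and 159 in wild type TSA, a ratio of normalised levels of 67.4 with a 95% exact interval of 18.4 to 561. In TKO it had 2 counts in DMSO and 250 in TSA, a ratio of 115 (31.6 to 959). Its level reached 3.60 and 6.80 CPM in wild type TSA and 5.68 and 10.4 CPM in TKO TSA. Pramef6 (Pramel11) had 3 counts in wild type DMSO and 50 in TSA, a ratio of 14.1 (4.56 to 70.8). These intervals cover counting error only.

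Gm13119 (Pramel31) rose from 0.428 and 0.892 CPM in wild type DMSO to 4.15 and 10.9 in TSA, and from 0.958 and 1.60 to 12.0 and 20.8 CPM in TKO, an averaged log2 difference of 3.60 ± 0.38 (adjusted p 9.85e-06). Gm13109 (Pramel16) went from 0.357 and 0.162 to 3.18 and 7.48 CPM in wild type, and from 0.547 and 0.364 to 5.07 and 8.35 in TKO, an averaged log2 difference of 4.06 ± 0.40. Gm13083 (Pramel21), with 2 or 3 counts in each DMSO library, had a log2 difference of 2.38 ± 0.52. Both passed the filter through the TSA libraries alone, so no p is given for them. Pramef17 and Gm13128 (Pramel30) were tested and not called, with log2 differences of -0.13 and -0.43 and levels no higher than 2.11 CPM. Pramef17 was highest in TKO DMSO, at 0.753 and 0.728 CPM. Its passing of the filter may have rested on that group, which would favour a negative value. In Gm13119 and Gm13109, replicate 2 of each TSA group was the higher library. Markers of two-cell-like cells, among them Zscan4c and Zfp352, moved in the same direction: all 5 were detected, and their summed level was 9.85 to 9.89 CPM without TSA and 106 to 187 with it in wild type cells, and 6.43 to 7.06 without and 233 to 295 with it in TKO cells, and their part in the result was not tested. The summed level of the 4 trophoblast markers ran from 7.21 to 11.9 CPM in DMSO and from 41.2 to 54.0 CPM in TSA.

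**Figure D4:**
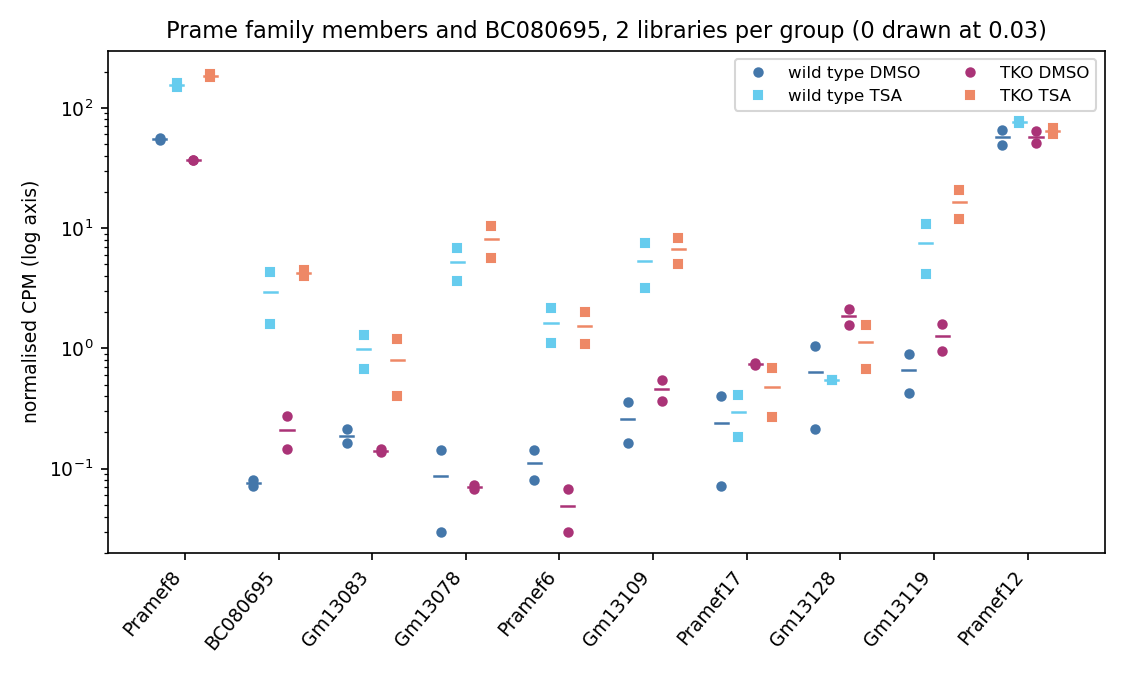
Normalised CPM on a log axis (y axis) of the 9 tested Prame family genes and BC080695 in order of position (x axis), with 1 point per library, a bar at the mean of each group of 2, and a value of 0 drawn at 0.03. Gm13078 lies below 0.15 CPM in all 4 DMSO libraries and at 3.60 to 10.4 CPM in TSA.

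Among the 15 other named genes tested, 4 rose and 6 fell with TSA, against 35.9% and 33.0% of all genes, so the counts are near the background. One of the 4, BC080695, passed the filter through the TSA libraries alone. BC080695, which lies among the Prame genes, had 2 counts in wild type DMSO and 89 in TSA, a ratio of 37.7 (95% exact interval 10.1 to 316, counting error only), and 6 against 130 counts in TKO, a ratio of 20.0 (8.95 to 55.5). Nppb, which encodes the brain natriuretic peptide, stood at 1.93 and 1.38 CPM without TSA and 7.02 and 9.51 with it in wild type cells, and at 2.26 and 2.62 without and 9.74 and 11.4 with it in TKO cells. It rose 4.62-fold (log2 2.21 ± 0.19, adjusted p 1.96e-06). Plod1, a lysyl hydroxylase of collagen, rose by 0.65 ± 0.07 on the log2 scale (adjusted p 1.14e-05), from 30.9 and 31.0 to 47.9 and 48.3 CPM in wild type and from 36.2 and 37.5 to 59.1 and 57.9 in TKO. The fourth was Fv1, a retroviral restriction factor, with a log2 difference of 0.39 ± 0.16 and an adjusted p of 0.0458, a call lost in DESeq2, with no filter on low counts and when any of 6 libraries was left out (wild type DMSO replicate 2, wild type TSA replicate 1, or any TKO library).

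Of the 6 that fell, Agtrap, which encodes an angiotensin receptor-associated protein, stood at 83.8 and 69.5 CPM without TSA and 45.4 and 40.0 with it in wild type cells, and at 101 and 101 without and 55.6 and 44.3 with it in TKO cells. It fell by 0.93 ± 0.09 on the log2 scale (adjusted p 6.88e-06). The chloride transporter gene Clcn6 fell by 0.55 ± 0.08 (adjusted p 0.000119). Miip, Tnfrsf8 (which encodes CD30) and Dhrs3 fell by 0.65 ± 0.12, 0.84 ± 0.26 and 1.30 ± 0.28, and the call of Tnfrsf8 was lost in DESeq2 and without TKO DMSO replicate 2. Dhrs3 fell from 6.14 and 4.38 to 1.04 and 1.36 CPM in wild type, while its TKO libraries were at 2.12 and 1.09 without TSA and 1.35 and 1.00 with it, and overlapped. Vps13d, Tnfrsf1b, Smarca5-ps, Rps19-ps3 and Mfn2, a mitochondrial fusion gene, were not called, with log2 differences from -0.22 to 0.04. Of the unnamed models, Gm13212 fell by 0.46 ± 0.17 (adjusted p 0.0297, and up to 0.149 in the 8 of 14 alternatives that lost the call), and 2510039O18Rik and Gm13034 were not called, at -0.02 and -0.10.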

How the data were processed

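The 8 RNA-seq libraries (4 groups of 2, grouped by titles) were used. Raw read counts per gene were deposited by the authors with exon coordinates and the summed exon length, another value taken as deposited. Total RNA was ribosome-depleted and libraries were made with a directional kit, per the labels' protocols. The submitters' processing notes name TopHat2 2.0.13, featureCounts 1.4.5-p1, edgeR 3.22.3 and mm10, without their roles. Whether counting used strand, and its treatment of multi-mapping reads, is not given in the sources used here.

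Members were the genes whose first exon row is on chromosome 4 and whose smallest start lies in the window. Members and lists were chosen with earlier results of these data known. Groups went by symbol, in the table or in RefSeq; a finger count from proteins was planned and not made. Counts were fitted with edgeR 4.0.16 in R 4.3.3: filterByExpr (15822 of 23420 genes), TMM scaling, 1 mean per group, quasi-likelihood tests, two-sided, 4 residual degrees of freedom, Benjamini-Hochberg adjustment over all genes tested, called below 0.05. Log2 differences are from that fit, and standard errors are the difference over the root of F, so approximate. An exact permutation of 2 against 2 libraries cannot go below 0.333. No pair of replicates agreed within sampling noise (chi-square per degree of freedom 5.32 to 12.3). Named genes were those called with the largest differences and non-overlapping libraries at a mean of at least 1 CPM, up to 8 per direction, the 4 highest and 3 most different in DMSO per group, those at the edges, and those near 0 in a group; a few further genes were named after their values were seen, and 1 gene that the rule names is not reported here. The model was checked on simulated data. Alternatives were other scalings, no filter, DESeq2 1.42.0, a replicate block, the TSA libraries alone and each library left out. Floors and intervals cover counting error only.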

Additional observations from a re-analysis of the deposited data

Results flagged for a closer look

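The genotype difference of Pramef8 had opposite signs in the 2 treatments, while its level rose with TSA in both genotypes. TKO against wild type had a log2 difference of -0.58 in DMSO (37.1 and 37.0 against 54.2 and 56.4 CPM) and of 0.26 in TSA (179 and 192 against 149 and 160 CPM), and the libraries did not overlap in either treatment. The difference between the 2 values was not tested, because the DMSO libraries chose the window. In TSA the difference between genotypes was not called for Pramef8 (adjusted p 0.0617, edgeR quasi-likelihood test). Pramel1, the nearest tested gene before the window, also had opposite signs, at -1.24 in DMSO and 0.14 in TSA.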

How the results depend on the processing

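Leaving out each library in turn gave 2 to 8 members called higher in TKO under TSA (5 with all libraries), 1 to 5 zinc finger members among them (3 with all), a zinc finger median of 0.13 to 0.64 and a Prame median for the averaged TSA effect of 1.89 to 2.65 (2.38 with all). The window median of the averaged TSA effect, -0.43, ran from -0.49 to -0.21 over the same fits, was -0.25 with total counts as the only scaling, -0.054 with no filter on low counts and -0.17 without the members whose exons overlap another gene. With no filter the Prame median was 1.88. Total-count scaling moved the median of all genes to 0.20 and upper quartile scaling to 0.14, from 0.03, and the 13 zinc finger falls were called under both. With the replicate number as a block, 11 members were called higher in TKO under TSA, 6 of them zinc finger genes (Gm13119, Pramef8 and Plod1 were also called, at adjusted p 0.000641, 0.0318 and 0.0442), and 4097 genes in all, against 2910 without it. Between any 2 groups, libraries with the same number deviated together with a correlation of 0.06 to 0.37. No label used here ties a number to a shared culture or day, so the numbers were not taken to pair the libraries, and whether same-numbered libraries share a source cannot be told. No result turned direction past the threshold. Without filtering, 7 members were called higher in TKO under TSA, and 4 were called with DESeq2 or in the fit of the 4 TSA libraries. Causes of these shifts were not tested. Members under the filter cannot be judged at this depth.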
